A study of Mus musculus with 16 samples.

Results

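The cells described here are the 376 cells, of 20376 in the series, that the authors named neuroblastoma cells although they came from the libraries sorted for CD45+ leukocytes. They were 205 of 5219 sorted cells from wild-type (WT) hosts and 171 of 4305 from hosts lacking CD200R (KO). They were chosen by the deposited cell type name and library alone. The hosts were male C57BL/6 mice of 8 weeks that carried a subcutaneous NB9464D tumor, taken on day 28 from a WT or a CD200R-/- host. One part of the labels writes the deleted gene as CD200 instead of CD200R. Each tumor was digested with collagenase, and its cells were captured with 10x Genomics 3′ chemistry after sorting for CD45 or without sorting. The labels list 4 samples per group, but the cells carry 1 library name per group, so each group was 1 library here. No difference between KO and WT could therefore be tested, and all intervals below cover counting error only.

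CD45, encoded by Ptprc, is a phosphatase on the surface of nearly all nucleated blood cells, and sorting for it is meant to leave tumor and stromal cells behind. NB9464D is a mouse neuroblastoma line derived from a MYCN transgenic tumor, and Hand2 is a transcription factor of the sympathetic lineage from which neuroblastoma arises. Cd200r1 encodes CD200R, which binds CD200 and restrains myeloid cells and some lymphocytes. Dividing cells of any lineage share a large program of replication and mitosis genes, so that clustering can place them together by that program instead of by their origin.

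Most of these cells carried leukocyte markers together with cell cycle RNA, and a smaller set carried fibroblast markers and Hand2 with the same cell cycle RNA. Each cell received the lineage for which it had most of 6 marker genes detected, with at least 2 markers and 1 more than the next lineage. By this call 132 of 205 WT members (64.4%, 95% Clopper-Pearson interval 57.4 to 70.9) and 133 of 171 KO members (77.8%, 70.8 to 83.8) were leukocyte-like. A further 49 WT members and 22 KO members had fibroblast markers. Hand2 was found in 49 and 19 of these, and Ptprc in 4 and 6. The other 24 WT and 16 KO members were unresolved. The name leukocyte thus held for most members and not for those 71 with fibroblast markers.

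The 20 genes that led the members over all other sorted cells were almost all genes of mitosis and chromatin replication, and 16 of the 20 stood in the cell cycle, cyclin and histone lists. Cenpf, a kinetochore protein, led with 365 CPM (UMIs of the gene scaled to a common total of all UMIs) in members against 16.1 in other sorted cells. Next came Aspm, a spindle pole protein, with 105 against 4.76 CPM, and Kif11, the kinesin that separates spindle poles, with 172 against 9.16 CPM. Top2a, the topoisomerase that untangles replicated DNA (chromosome 11, 98992943 to 99024189, minus strand, mm10), had 709 against 49.1 CPM and was detected in 96.3% of members. How the authors named the cells is not given in the sources used here, so these values describe the members and test nothing. RefSeq promoters were at hand for 14 of the 20 leading genes (build GRCm38.p6). The motif CCAAT, the NF-Y site common in mitotic promoters, was looked for on both strands in the 250 bases before the start, and 10 of the 14 held it, against 34.2% of 27025 promoters. At least 2 copies were found in 7 of the 14, against 10.4% of all promoters. The motif TTTGAA, the core of the cell cycle genes homology region, was found in 5 of the 14, against 16.3%. Both kinds of match may overlap, and a match shows only that the letters are there. The promoters of Top2a (chr11:99024190-99024439, minus strand), Ube2c (chr2:164769679-164769928, plus strand), Cdc20 (chr4:118437344-118437593, minus strand) and Ccnb1 (chr13:100786487-100786736, minus strand) are printed 5′ to 3′ as examples from the leading genes, with matches to either motif on either strand in capitals.
Top2a: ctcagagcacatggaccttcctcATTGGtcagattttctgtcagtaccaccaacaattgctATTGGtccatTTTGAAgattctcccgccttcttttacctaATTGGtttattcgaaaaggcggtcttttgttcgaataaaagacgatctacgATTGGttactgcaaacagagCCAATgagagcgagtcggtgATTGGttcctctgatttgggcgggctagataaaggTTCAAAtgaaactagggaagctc
Ube2c: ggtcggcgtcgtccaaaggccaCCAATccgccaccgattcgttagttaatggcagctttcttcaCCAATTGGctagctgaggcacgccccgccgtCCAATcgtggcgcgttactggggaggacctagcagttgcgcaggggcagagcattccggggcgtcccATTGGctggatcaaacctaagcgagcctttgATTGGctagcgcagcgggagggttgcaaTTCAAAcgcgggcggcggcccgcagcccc
Cdc20: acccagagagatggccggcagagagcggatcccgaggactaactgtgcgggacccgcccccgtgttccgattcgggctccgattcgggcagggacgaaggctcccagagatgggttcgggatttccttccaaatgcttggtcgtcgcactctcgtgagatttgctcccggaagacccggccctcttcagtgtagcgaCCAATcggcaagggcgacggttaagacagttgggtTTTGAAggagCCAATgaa
Ccnb1: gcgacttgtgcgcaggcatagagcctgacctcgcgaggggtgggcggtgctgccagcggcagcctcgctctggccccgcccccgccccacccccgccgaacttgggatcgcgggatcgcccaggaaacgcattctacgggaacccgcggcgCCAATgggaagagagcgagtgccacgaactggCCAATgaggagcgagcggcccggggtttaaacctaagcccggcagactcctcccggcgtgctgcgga
Top2a and Ube2c, the ubiquitin-conjugating enzyme of mitotic exit, each held 6 CCAAT matches, whereas Cdc20, the activator of the anaphase-promoting complex, and Ccnb1, the mitotic cyclin B1, each held 2.

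The members were deeper than the cells around them. The median WT member had 37805 transcript molecules (UMIs) and the median KO member 15900, against 4419 and 3023 in other sorted cells of the same libraries. At least 3 markers of each of 2 or more lineages were found in 46 WT members (22.4%) and 42 KO members (24.6%), against 10.9% and 7.43% of other sorted cells. These mixed cells were deeper, with medians of 43438 UMIs in WT and 23020 in KO, against 36703 and 13856 in the remaining members. In WT the most frequent pair was monocyte or macrophage with fibroblast (11 cells), and in KO it was T cell with NK cell (21 cells). Whether mixed cells were doublets was not tested. A cell barcode also present in another library was carried by 11 WT and 20 KO members. Of those 20, 14 were among the 22 KO members with fibroblast markers, which leaves 8 KO cells without them.

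Cd200r1 (chromosome 16, 44765736 to 44794978, plus strand) was counted first, as the check of the labels. It had 204 UMIs (25.3 CPM) in WT members and 0 in KO members, where 3 UMIs would be 0.835 CPM. In the monocyte-macrophage-like members it had 189 UMIs (53.0 CPM, in 77.9% of 86 cells) in WT and 0 in 19 KO cells. The WT and KO labels thus matched the RNA of this gene.

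The lineage mix of the members differed between the libraries. Monocyte-macrophage-like cells, with Lyz2 (lysozyme) and C1qa (a complement subunit), were 86 of 205 WT members (41.95%, 35.1 to 49.0) and 19 of 171 KO members (11.1%, 6.82 to 16.8). NK-like cells, with the cytotoxic granule gene Nkg7, numbered 31 in WT (15.1%, 10.5 to 20.8) against 62 in KO (36.3%, 29.1 to 43.9). T-like cells, with the T cell receptor subunit Cd3e, numbered 15 in WT (7.32%, 4.15 to 11.8) against 47 in KO (27.5%, 20.9 to 34.8). Of WT members 23.9% (18.2 to 30.3) had fibroblast markers, and of KO members 12.9% (8.24 to 18.8). In KO 2 members were dendritic-like and 3 mast cell-like, and WT had 0 of either. For the first 3 lineages the intervals of WT and KO were apart, and for the fibroblast markers they overlapped slightly. Without members with a shared barcode, 24.2% of WT (18.4 to 30.9) and 5.30% of KO members (2.32 to 10.2) had fibroblast markers, and these intervals were apart. In KO that share was also 7.02% when 3 markers and a lead of 2 were required, 8.11% with stricter cell limits and 7.41% at 2000 UMIs per cell. In KO, 14 members with fibroblast markers shared a barcode with the WT sorted library. Of these, 13 were at least 10-fold deeper than the WT cell with the barcode. In WT, 8 members shared one with the KO sorted library, and 7 were at least 10-fold shallower. Among those 14 KO cells the filter thus removed mainly the deeper copy. A call from Lyz2, C1qa, Cd3e, Nkg7 and Cd79a alone had no fibroblast class. It gave 67.8% monocyte-macrophage-like members in WT and 22.2% in KO. The same genes gave 20.98% and 46.8% NK-like and 2.93% and 15.8% T-like members, with the same order of WT and KO as in the main call.

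**Figure D1:**
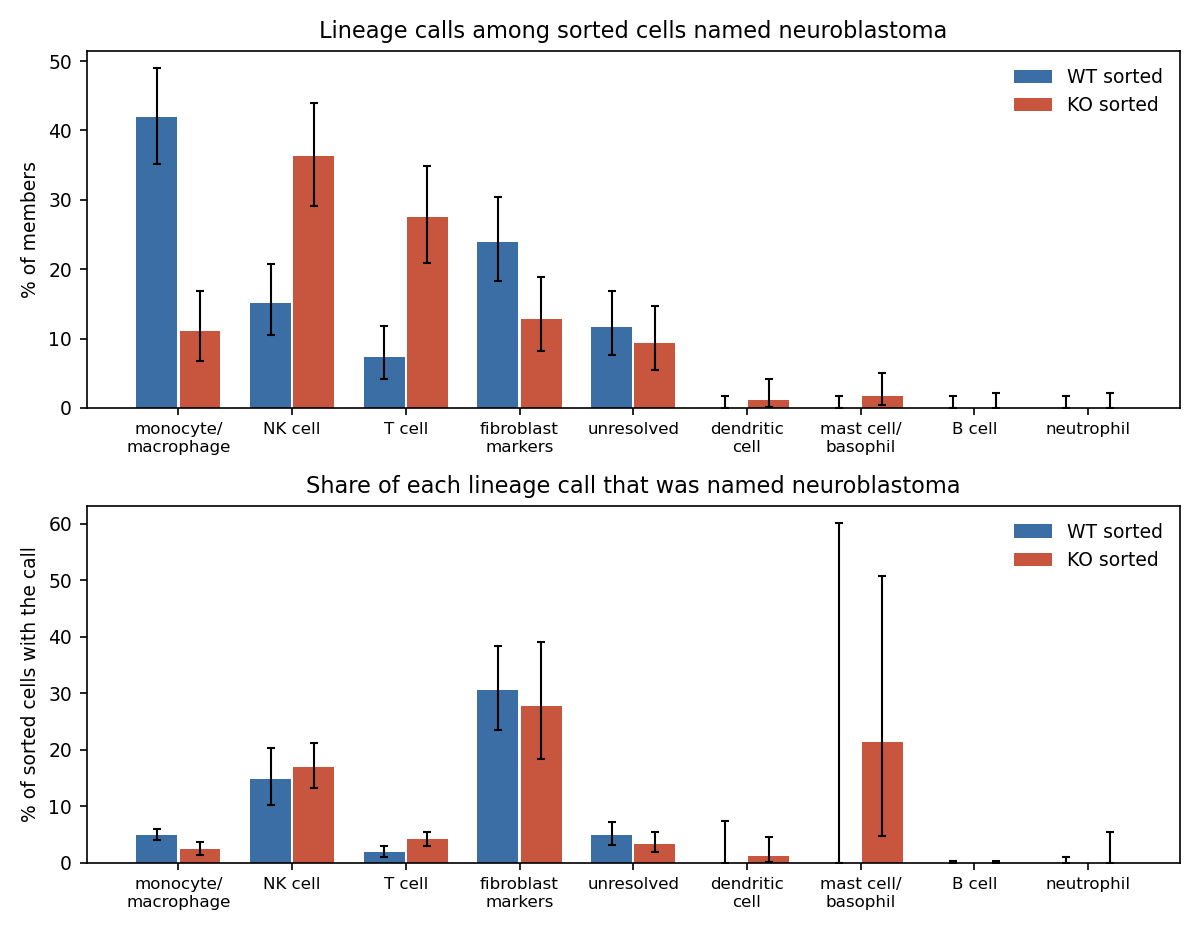
Lineage calls of the sorted cells named neuroblastoma, as a percent of members in each sorted library (top), and the percent of all sorted cells with a call that carried the name (bottom). Bars are single libraries and whiskers are 95% Clopper-Pearson intervals. Monocyte-macrophage-like cells made up 41.95% of WT and 11.1% of KO members, and no B-like or neutrophil-like cell was among them.

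The same shift ran through the sorted libraries as a whole. Monocyte-macrophage-like cells were 33.5% of all sorted cells in WT and 18.7% in KO, NK-like cells 4.02% and 8.48%, and T-like cells 15.4% and 26.4%. Within a call, 31 of 210 NK-like cells in WT (14.8%, 10.3 to 20.3) and 62 of 365 in KO (17.0%, 13.3 to 21.2) carried the neuroblastoma name. Of monocyte-macrophage-like cells the name went to 4.92% in WT (3.96 to 6.04) and 2.36% in KO (1.43 to 3.67). Of T-like cells it went to 1.87% in WT (1.05 to 3.06) and 4.13% in KO (3.05 to 5.46). Of cells with fibroblast markers it went to 30.6% in WT and 27.8% in KO. Not one of 1356 B-like cells in WT or 1203 in KO had it, where 3 cells would be 0.221% and 0.249%. The upper Clopper-Pearson limits were 0.272% and 0.306%. Not one of 383 neutrophil-like cells in WT had it either, where 3 cells would be 0.783% and the upper limit was 0.96%. The intervals of the NK-like share overlapped, and those of the T-like share met at their ends, while the monocyte-macrophage-like intervals were apart, with the higher share in WT.

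The calls were made from markers, so their levels describe the calls and test nothing. Ptprc reached 225 CPM in WT and 481 in KO monocyte-macrophage-like members, 1021 and 2072 in NK-like members, and 861 and 1302 in T-like members. In members with fibroblast markers it was 3.20 CPM in WT and 18.4 in KO, detected in 8.16% and 27.3% of cells although these were the deepest, with medians of 58391 and 47655 UMIs. Lyz2 had 7034 and 2731 CPM in the monocyte-macrophage-like members. It was also present at 89.3 and 27.1 CPM in NK-like members, which should lack it, in 67.7% and 25.8% of cells at median depths of 22425 and 15454 UMIs, or 13.3% and 8.33% at 2000 UMIs per cell. Nkg7 had 1352 and 729 CPM in NK-like and 1110 and 349 CPM in T-like members. Cd3e had 455 and 414 CPM in T-like members, and 0 and 5.80 CPM in NK-like members. The 6 T cell markers together summed to 4144 and 2777 CPM in T-like members. In NK-like members they summed to 298.5 and 398.3 CPM, with 5 and 6 of them detected. Cd79a, a B cell receptor subunit, was at most 61.2 CPM in any of the called or unresolved groups shown. Each leukocyte-like group thus carried its own marker, with Nkg7 shared by NK-like and T-like members. RNA of T cell markers other than Cd3e was also found in NK-like members. Some Lyz2 RNA lay outside the monocyte-macrophage-like members.

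**Figure D2:**
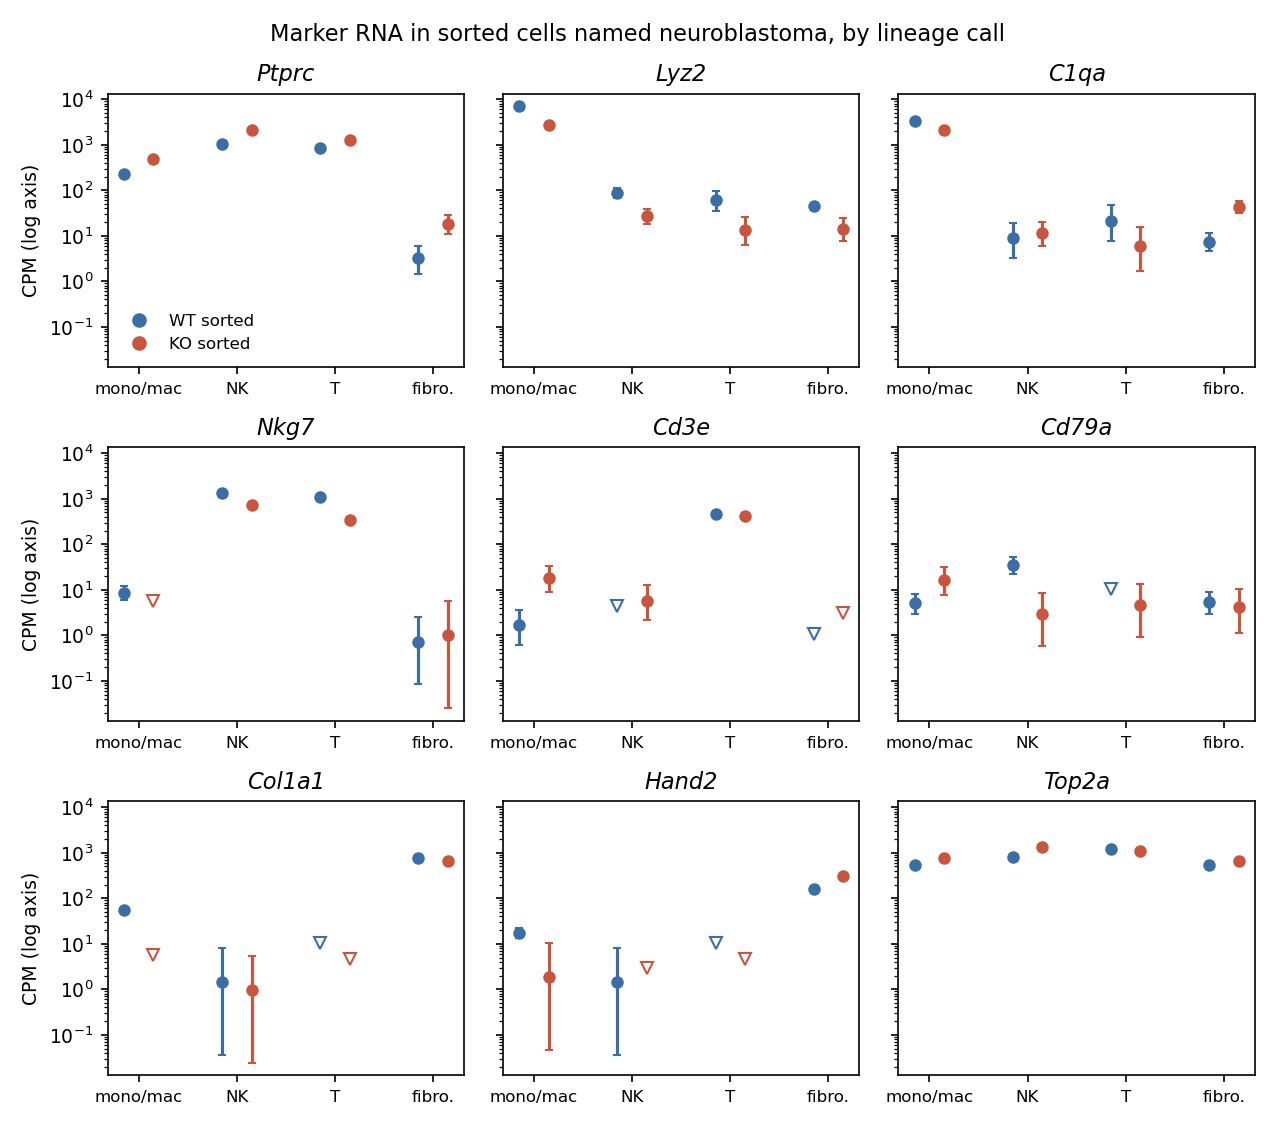
CPM of 9 marker genes, on a log axis, in members of each lineage call in the WT sorted and KO sorted library. Points are single libraries, whiskers are 95% Poisson intervals and open triangles mark 0 UMIs drawn at the level of 3 UMIs. Top2a is high in every group, while Ptprc is low and Hand2 high only in the cells with fibroblast markers among the 4 groups shown.

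Cell cycle RNA was high in every lineage. The 52 genes of the G2 and M phase list took 1.08% of UMIs in WT members and 1.21% in KO members, against 0.155% and 0.198% in other sorted cells. The 42 genes of the S phase list took 0.294% and 0.468%, against 0.104% and 0.126%. Within the monocyte-macrophage-like members, the G2 and M list took 1.16% in WT and 1.16% in KO. The corresponding values were 1.18% and 1.47% in NK-like, 1.86% and 1.38% in T-like members, and 0.960% and 0.888% in those with fibroblast markers. With each cell thinned to 2000 UMIs, the S list exceeded the G2 and M list in 17 of 193 WT members (8.81%) and 32 of 162 KO members (19.8%). Of that KO number 15 were T-like, out of 45 (33.3%), against 0 of 14 T-like cells in WT. Free RNA also enters such scores, and no cycling is read from them alone.

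**Figure D3:**
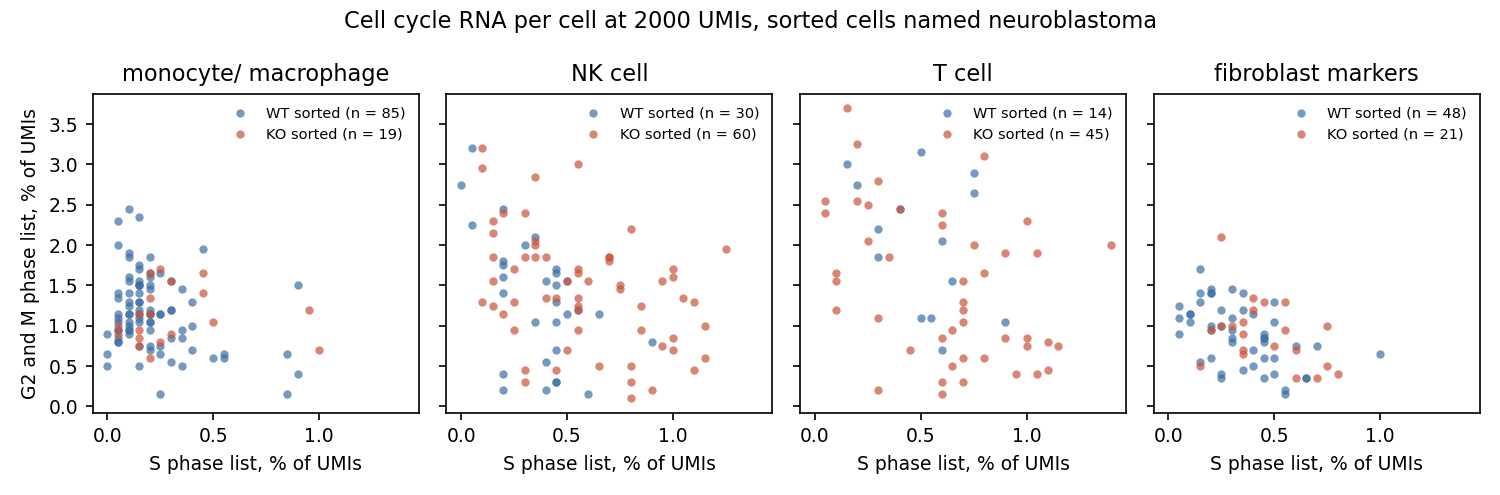
Percent of UMIs in the S phase list (horizontal axis) and in the G2 and M phase list (vertical axis) for each member thinned to 2000 UMIs, by lineage call and library. Each point is 1 cell. Monocyte-macrophage-like cells lie mainly at low S values, while NK-like and T-like cells spread further to the right, with S above G2 and M in 33.3% of T-like KO cells.

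The name covered a large part of the sorted cells with RNA of 2 proliferation genes. Both Mki67, the proliferation antigen Ki-67, and Top2a were detected in 190 of 205 WT members (92.7%) and 147 of 171 KO members (86.0%). Of all sorted cells with both, the members held 42.6% in WT (190 of 446) and 49.3% in KO (147 of 298). These shares were taken at full depth, where members were deeper than other sorted cells and detection was easier. The next largest set in WT was named M1 macrophages (145 cells, 32.5%). In KO the next sets were M1 macrophages (41 cells, 13.8%) and myeloid dendritic cells (29 cells, 9.73%). In B-like cells both were detected in 2 of 1356 WT and 1 of 1203 KO cells. At 2000 UMIs per cell, at least 1 of the genes was detected in 77.2% of WT and 90.7% of KO members, against 5.99% and 9.68% of other sorted cells.

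The members with fibroblast markers were set beside the tumor library cells that the authors named neuroblastoma and those named fibroblasts. Hand2 (chromosome 8, 57320983 to 57324633, plus strand) stood at 157 CPM in the 49 WT cells and at 316 CPM in the 22 KO cells, found in 100% and 86.4% of them. In unsorted tumor library cells named neuroblastoma it had 154 and 245 CPM, and in those named fibroblasts 181 and 333 CPM. The mouse gene Mycn, counted on build mm10, had 3.91 and 11.3 CPM in these members. It had 3.56 and 4.91 CPM in tumor cells named neuroblastoma and 3.34 and 4.70 CPM in those named fibroblasts. Whether RNA of the MYCN transgene entered these counts was not tested. Col1a1, the chain of type I collagen that pairs with Col1a2, had 749 and 644 CPM, with 578 and 402 CPM in tumor cells named neuroblastoma and 723 and 631 CPM in those named fibroblasts. The 6 fibroblast markers summed to 3306 and 1936 CPM in the members, 2572 and 1015 CPM in tumor cells named neuroblastoma, and 3108 and 2093 CPM in those named fibroblasts. Hand2 was thus present under both names in the tumor libraries. The marker sums of the members lay nearer to the cells named fibroblasts. However, the members were called by these 6 markers and the tumor library cells were not, so the sums describe the call and test nothing. Without shared barcodes Hand2 had 160 and 335 CPM and Col1a1 744 and 772 CPM. Of the 22 KO cells, 8 shared a barcode with the KO tumor library and 11 with the WT tumor library. Levels between genes are not compared, since the chemistry counts transcript ends and not length.

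The genes with the largest ratios in these members, picked for that, are given with their levels in tumor library cells named neuroblastoma, without a test. Col1a2 (chromosome 6, 4504814 to 4541544, plus strand) had 1153 UMIs (410 CPM) in WT and 1 UMI (1.02 CPM) in KO, in 87.8% and 4.55% of cells. Relative to the median gene, this was a log2 ratio of KO over WT of −8.87 (95% binomial counting interval −14.2 to −6.38). In the tumor libraries Col1a2 had 366 and 0.623 CPM. In sorted cells with fibroblast markers and another name, Col1a2 had 554 and 362 CPM, with 94.2% of the KO UMIs in 1 cell. Htra1, a secreted protease, had 59.7 and 1.02 CPM here and 41.0 and 0.503 CPM there. Id1, an inhibitor of differentiation factors, had 88.5 and 1.02 CPM here, and Slc16a3, a lactate exporter, had 103 and 2.05 CPM. In the tumor libraries they had 30.7 and 1.15 CPM, and 68.8 and 1.03 CPM. These 4 genes were low in KO cells in both preparations. In the opposite direction, Mgp, an inhibitor of calcification, had 77.1 and 976 CPM (log2 ratio 3.44, 3.23 to 3.66), with 160 and 613 CPM in the tumor libraries. Cpe, a peptide-processing enzyme, had 4.26 and 114 CPM, Col8a1, a network-forming collagen, 8.53 and 161 CPM, and Efemp1, a matrix glycoprotein, 14.6 and 166 CPM. Without the members with a shared barcode, 8 KO cells remained, and Col1a2 and Id1 had 0 UMIs and Htra1 and Slc16a3 1 UMI each in them. Bounded by 3 UMIs, the log2 ratios were at most −3.96 for Col1a2 and −1.72 for Id1. The ratios were 3.59 for Mgp, 5.03 for Cpe, 5.55 for Col8a1 and 4.42 for Efemp1.

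**Figure D4:**
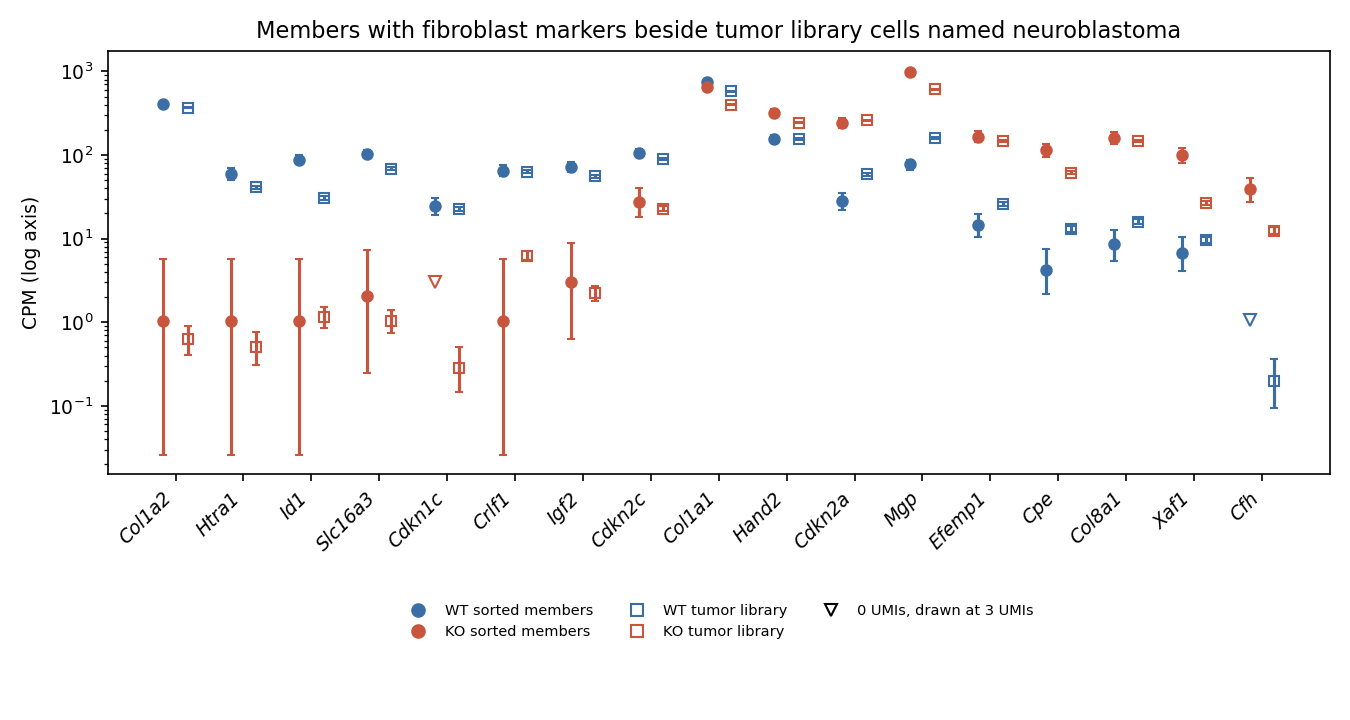
CPM, on a log axis, of 17 genes in sorted members with fibroblast markers (filled circles) and in tumor library cells named neuroblastoma (open squares), for WT (blue) and KO (red). Whiskers are 95% Poisson intervals and triangles mark 0 UMIs drawn at the level of 3 UMIs. With all these members kept, the order of WT and KO in the sorted cells is the order in the tumor libraries in each gene. The genes were chosen by hand, so the shared order tests nothing. Without shared barcodes the order of Col1a1 turned in the members, with 744 CPM in WT and 772 CPM in KO. Col1a2 stood at 410 and 1.02 CPM in the sorted cells.

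Cell cycle inhibitors also differed between the 2 sets of members with fibroblast markers. Cdkn2a, the locus of p16 and p19Arf (chromosome 4, 89274471 to 89294653, minus strand), stood at 28.1 CPM in WT and at 242 CPM in KO, found in 10.2% and 81.8% of cells. Cdkn1c, encoding p57 (chromosome 7, 143458339 to 143461050, minus strand), had 69 UMIs (24.5 CPM) in WT and 0 in KO. Cdkn2c, encoding p18, had 107 and 27.6 CPM (log2 ratio −2.17, −2.79 to −1.60). Without shared barcodes Cdkn2a was at 3.12 and Cdkn2c at −1.60, while Cdkn1c had 25.6 CPM in WT and 0 UMIs in KO, where 3 UMIs would be 27.9 CPM, so no fold is given. The tumor libraries had 58.6 and 259 CPM of Cdkn2a, 22.4 and 0.288 CPM of Cdkn1c, and 89.0 and 22.9 CPM of Cdkn2c. Cyclin D1, Ccnd1, had 193 and 88.05 CPM (−1.35), or −0.59 without shared barcodes and 0.02 with cells thinned to 2000 UMIs. Of the 23 genes of the cyclin and inhibitor list with at least 20 UMIs, 9 were higher by 1.5-fold or more and 9 lower, where 27.2% and 23.2% of all 9594 genes were. Of the 42 S phase genes 18 were higher and 3 lower, with a median log2 ratio of 0.49 against 0.07 over all genes. Of the 52 G2 and M phase genes 3 were higher and 17 lower, with a median of −0.28. Without shared barcodes these medians were 0.51 and −0.58. B2m, the light chain of MHC class I, had 111 and 328 CPM (log2 ratio 1.34, 1.11 to 1.57), or 1.03 without shared barcodes. H2-D1, a heavy chain, had 45.1 and 170 CPM (log2 ratio 1.69), but 0.04 without shared barcodes. Fabp5, a fatty acid carrier, had 1635 and 380 CPM (log2 ratio −2.33), or −2.14 without shared barcodes. Over all genes with at least 50 UMIs, 719 of 7217 (9.96%) were higher in these KO members by 2-fold or more and 793 (11%) lower. Without shared barcodes these counts were 884 and 1030.

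The monocyte-macrophage-like members, 86 in WT and 19 in KO, had higher MHC class II and alternative activation medians and a lower hypoxia and glycolysis median in KO, while chemokines were mixed. Over 7330 genes with at least 50 UMIs, 650 (8.87%) were higher in KO by 2-fold or more and 799 (10.9%) lower, relative to the median gene. The KO values rest on few cells, so the share of the largest cell is given where it is high. All comparisons below are set beside the monocyte-macrophage-like sorted cells that had other names, 1661 in WT and 785 in KO.

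Retnla, the secreted marker of macrophages stimulated by interleukin 4 (chromosome 16, 48842551 to 48844461, plus strand), had 2 UMIs (0.561 CPM) in WT and 2188 UMIs (4049 CPM) in KO. The log2 ratio was 12.66 (10.8 to 15.7), the RNA was found in 2.33% and 52.6% of cells, and 37.4% of the KO UMIs came from 1 cell. In the cells named otherwise it had 196 and 5727 CPM (4.58). Ccl24, eotaxin-2 (chromosome 5, 135569937 to 135573049, minus strand), had 16.3 and 385 CPM (4.41, 3.98 to 4.86), with 63.0% of the KO UMIs in 1 cell. In the cells named otherwise its log2 ratio was 4.58. Among KO members Retnla was also detected in 24.2% of NK-like cells (23.2 CPM), 17.0% of T-like cells (21.2 CPM) and 50% of those with fibroblast markers (18.4 CPM). At 2000 UMIs per cell the shares were 31.6% in monocyte-macrophage-like, 5% in NK-like and 4.44% in T-like KO members. A UMI of Retnla is therefore no sign that a cell expressed it, and the level in CPM was higher in monocyte-macrophage-like members. Arg1, arginase 1, had 20.2 and 124 CPM (2.46, 1.96 to 2.96), with 62.7% of the KO UMIs in 1 cell, and 0.61 in the cells named otherwise. Ear2, a ribonuclease, had 17.9 and 300 CPM (3.91, 3.48 to 4.35), beside 2.73. Folr2, a folate receptor of resident macrophages, was lower, with 208 and 72.2 CPM (−1.68, −2.19 to −1.22), beside −1.28. In all, 11 of 18 alternative activation genes were at least 1.5-fold higher and 2 lower, where 24.5% and 24% of all 9360 genes with at least 20 UMIs were. In T-like members 10 of 10 genes of this list were at least 1.5-fold higher in KO, with a median of 1.74, where 28.8% of all genes were. Ccl24 and Arg1 are on this list, and most of their RNA in KO T-like members came from 1 cell. In members with fibroblast markers 2 of 4 genes of the list were higher by that measure, and in NK-like members 2 of 5. Of all genes 27.2% were higher in each of these 2 groups. The part of RNA from other cells in these values was not tested.

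Of 19 chemokines 5 were at least 1.5-fold higher and 8 lower, against 24.5% and 24% of all genes, so the share that was higher was near that of all genes. Ccl6 had 324 and 1564 CPM (2.11, 1.98 to 2.24), beside 0.85 in the cells named otherwise. Ccl8 had 431 and 1449 CPM (1.59), beside 2.04, and Ccl9 had 188 and 620 CPM (1.57), beside 0.75. All 3 are attractants of monocytes or lymphocytes and were found in most cells of both libraries. Pf4, platelet factor 4, had 3076 and 1133 CPM (−1.60, −1.72 to −1.48), beside −2.06. Ccl12, a monocyte attractant, had 888 and 488 CPM (−1.02), and Ccl3 191 and 106 CPM (−1.01), beside −1.06 and −1.16. Ccl2, the main monocyte attractant, had 1284 and 1195 CPM (−0.26), beside −1.05. Cxcl2, a neutrophil attractant, had 440 and 109 CPM (−2.17), beside −1.65. Cxcl10 had 59.4 and 3.70 CPM (−4.16, −7.22 to −2.29), beside −0.76. The signs of Cxcl2 and Cxcl10 turned, to 0.21 and 1.83, when lineages were called by the most marker UMIs.

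All 9 MHC class II genes measured were at least 1.5-fold higher in KO members (median log2 ratio 2.54), where 24.5% of all genes were. In the cells named otherwise 5 of 9 were, with a median of 0.72, where 21.5% of all genes were higher by that measure and 22.8% lower. Ciita, the master activator of the class, had 7.85 and 66.6 CPM (2.93, 2.18 to 3.70), beside 1.44. H2-DMb2, which helps to load peptides, had 5.61 and 66.6 CPM (3.41, 2.59 to 4.28), beside 1.21. Itgax, the integrin CD11c, had 12.1 and 106 CPM (2.97, 2.38 to 3.58), beside 2.11. The dendritic cell markers summed to 17.9 CPM in WT and 294 CPM in KO, with all 6 detected in both, and Itgax is one of the 6. Their part in the class II values was not tested. Cd200r4, an activating relative of the deleted receptor, had 9.25 and 77.7 CPM (2.91, 2.22 to 3.62), beside 1.80.

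**Figure D5:**
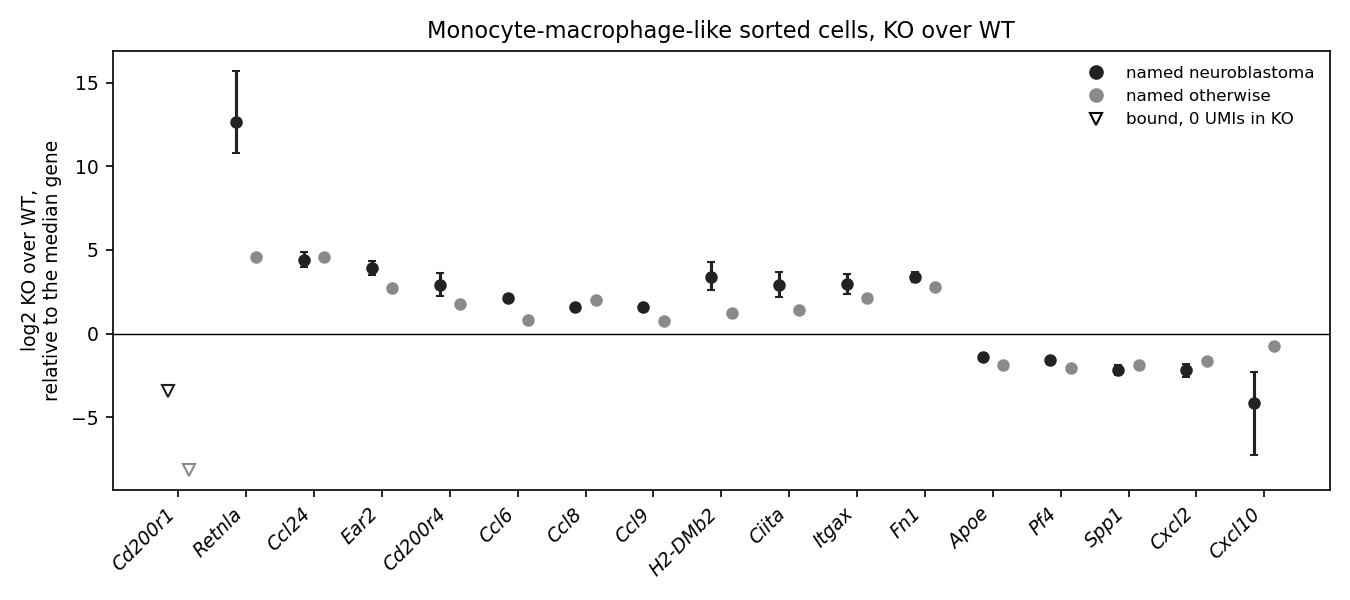
Log2 ratio of KO over WT, relative to the median gene, for 17 genes in monocyte-macrophage-like sorted cells named neuroblastoma (black) and named otherwise (grey). Whiskers are 95% binomial counting intervals and open triangles are bounds from 0 UMIs in KO. Both sets of cells have the same sign in each gene shown, with Retnla at 12.66 in members and 4.58 in the others. The genes were chosen by hand from the named genes, and both sets come from the same sorted libraries, so the shared signs test nothing. In members the signs of Cxcl2 and Cxcl10 turned when lineages were called by the most marker UMIs.

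Genes of glycolysis and hypoxia were mostly lower in KO macrophage-like members. Of 25 genes 22 were at least 1.5-fold lower and 2 higher (median log2 ratio −1.09), where 24% and 24.5% of all genes were. In the cells named otherwise 20 of 25 were lower and 0 higher (median −1.42), where 22.8% and 21.5% of all genes were. Ndrg1, a hypoxia-induced gene, had 72.0 and 14.8 CPM (−2.44, −3.67 to −1.44), and Pfkp, a phosphofructokinase, went the other way with 52.7 and 152 CPM (1.37). Complement C1q was lower, with C1qa at 3275 and 2098 CPM (−0.80) and C1qb at 4243 and 1440 CPM (−1.72). Apoe, the lipid carrier, had 6220 and 2624 CPM (−1.40), and Spp1, osteopontin, had 857 and 213 CPM (−2.17). Fn1, fibronectin, had 42.9 and 503 CPM (3.40, 3.10 to 3.69), with 41.2% of the KO UMIs in 1 cell. WT members of this call also carried RNA of other cell types. Their fibroblast marker list summed to 147 CPM, with 5 of 6 genes detected, against 0 in KO, and H19 had 69.0 and 3.70 CPM. The part of such RNA in the other ratios was not tested. Ribosomal protein genes took a median of 14.9% of UMIs per cell in WT and 10.8% in KO, and mitochondrial genes 3.93% and 3.82%. Their part in these ratios was not tested.

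The NK-like members, 31 in WT and 62 in KO, had more RNA of Nr4a2, Nr4a3 and Cxcr4 and less of several effector genes in KO. The genes named here are those with the largest ratios or members of the fixed lists. Of the 18 genes of the dissociation stress list 4 were at least 1.5-fold higher and 6 lower, with a median log2 ratio of −0.21. Among all 7289 genes with at least 20 UMIs 27.2% were higher and 24.9% lower. Over 4760 genes, 558 (11.7%) were higher in KO by 2-fold or more and 578 (12.1%) lower. Nr4a2 and Nr4a3, nuclear receptors induced by receptor signalling, had 89.3 and 475 CPM (2.11, 1.72 to 2.52) and 19.02 and 176 CPM (2.91, 2.10 to 3.85). In NK-like cells named otherwise their log2 ratios were 1.97 and 1.69. Cxcr4, the receptor for CXCL12, had 11.7 and 125 CPM (3.11, 2.09 to 4.36), beside 2.13. Tbx21, encoding T-bet, had 20.5 and 78.3 CPM (1.63, 0.81 to 2.57), beside 1.32. Klf4, a factor that restrains proliferation in lymphocytes, had 23.4 and 129 CPM (2.16, 1.40 to 3.00), beside 1.00. Cdkn1a, encoding p21, had 60.0 and 212 CPM (1.52, 1.03 to 2.04), beside 0.19.

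Of 12 genes of the cytotoxic list, 6 were at least 1.5-fold lower in KO NK-like members and 3 higher, where 24.9% and 27.2% of all 7289 genes were. Gzmc, a granzyme, had 3259 and 1475 CPM (−1.44), found in 80.7% and 33.9% of cells, beside −2.35. Nkg7 had 1352 and 729 CPM (−1.19, −1.33 to −1.05), beside −1.02. Ifng, interferon gamma, had 230 and 89.9 CPM (−1.65, −2.04 to −1.27), beside −0.29. Xcl1, the attractant of cross-presenting dendritic cells, had 1460 and 714 CPM (−1.33), beside −0.89, while Ccl5 had 222 and 392 CPM (0.52). Ccl4 had 661 and 418 CPM (−0.96), or −0.17 without mixed cells. Mt1 and Mt2, the metallothioneins, had 695 and 97.6 CPM (−3.13, −3.46 to −2.82) and 148 and 25.1 CPM (−2.86), beside −2.74 and −1.81. Ldha, lactate dehydrogenase, had 1320 and 619 CPM (−1.39), and 13 of 23 glycolysis and hypoxia genes were lower against 4 higher. S100a9 and Cxcl2 were among the lowest ratios, but 94.2% of the WT UMIs of Cxcl2 came from 1 cell. The median share of ribosomal protein genes was 26.1% in WT and 18.8% in KO, and its part in these ratios was not tested.

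Among the T-like members, cells with Cd8 were the larger set in WT and cells with Cd4 in KO, with wide intervals. Of 15 WT cells, 8 had Cd8a or Cd8b1 without Cd4 (53.3%, 26.6 to 78.7), against 13 of 47 in KO (27.7%, 15.6 to 42.6). Cd4 without Cd8 was found in 3 WT cells (20%, 4.33 to 48.1) and 22 KO cells (46.8%, 32.1 to 61.9). Foxp3, the factor of regulatory T cells, was detected in 3 WT cells (20%) and 16 KO cells (34.0%), and Il1rl1, the interleukin 33 receptor (chromosome 1, 40429570 to 40465415, plus strand), in 1 and 14. Both were found together in 1 WT and 9 KO cells, at median depths of 15846 and 11466 UMIs. At 2000 UMIs per cell, Foxp3 was detected in 0% and 17.8% of T-like members and Il1rl1 likewise in 0% and 17.8%. In the monocyte-macrophage-like members, Foxp3 was detected in 0% of both libraries and Il1rl1 in 11.6% and 5.26%. Those members were deeper, with medians of 37948 and 22990 UMIs, so these values do not measure background in T-like members. The WT share of Il1rl1 in T-like members rests on 1 cell and is not read as expression. The intervals of the WT and KO shares in T-like members overlapped, with 15 WT cells setting their width.

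Of 11 regulatory T cell genes measured in the T-like members, 9 were at least 1.5-fold higher in KO and 0 lower, with a median log2 ratio of 1.80. Among all 6022 genes 28.8% were higher and 19.3% lower. The rise was not particular to T-like members. In NK-like members 6 of 7 genes of the list were higher and 1 lower (median 1.42), where 27.2% and 24.9% of all genes were. In monocyte-macrophage-like members 0 of 2 were higher, and in those with fibroblast markers 0 of 3. In monocyte-macrophage-like cells named otherwise 10 of 12 were higher (median 1.41), where 21.5% of all genes were. Il2ra, the high-affinity interleukin 2 receptor, had 99.6 and 619 CPM (2.45, 1.90 to 3.06), beside 3.55 in T-like cells named otherwise. Il1rl1 had 2 and 99 UMIs, or 7.11 and 150 CPM (4.21, 2.32 to 7.28), beside 4.62. Gata3, the factor of type 2 helper cells also used by tissue regulatory T cells, had 74.7 and 356 CPM (2.07, 1.42 to 2.79), beside 2.13. Penk, proenkephalin, had 7.11 and 188 CPM (4.54, 2.66 to 7.60), beside 4.78, with 41.9% of the KO UMIs in 1 cell. Ccr7, the lymph node homing receptor, had 1 and 100 UMIs, or 3.56 and 151 CPM (5.23, 2.72 to 10.6), beside 0.18. The difference between those ratios was not tested, and 44.0% of the KO UMIs of Ccr7 came from 1 cell.

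The cytotoxic list went the other way in T-like members, with 8 of 13 genes at least 1.5-fold lower and 0 higher, against 19.3% and 28.8% of all genes. Cd8b1 had 363 and 110 CPM (−1.90, −2.35 to −1.45), Nkg7 had 1110 and 349 CPM (−1.85), and Ifng had 153 and 30.2 CPM (−2.52, −3.36 to −1.72). In the cells named otherwise these ratios were −1.72, −1.83 and −0.86. Ccnd2, the cyclin D2 of lymphocytes, had 142 and 505 CPM (1.65, 1.17 to 2.16), beside 1.10. Of 51 G2 and M phase genes 25 were lower and 2 higher, and of 41 S phase genes 7 were lower and 7 higher, against the same shares. Ccl24 and Arg1 RNA in KO T-like members came to 97.6% and 98.5% from 1 cell and is given for that reason as a single-cell value. Over 3163 genes with at least 50 UMIs, 359 (11.3%) were higher in KO by 2-fold or more and 255 (8.06%) lower.

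With all members pooled, cells of every lineage entered each ratio. Over 10523 genes, 1222 (11.6%) were higher in KO by 2-fold or more and 1360 (12.9%) lower, and the median gene stood at a log2 of 0.26 before centring. Scaled by total UMIs instead, 2001 were higher and 807 lower. The median gene stood at 0.16 in monocyte-macrophage-like, 0.30 in NK-like and 0.18 in T-like members, and at 0.22 in those with fibroblast markers. Scaled by total UMIs, 970 genes were higher and 234 lower in NK-like members, 951 and 578 in monocyte-macrophage-like members, 496 and 143 in T-like members, and 1177 and 507 in those with fibroblast markers. Lyz2 had 3375 and 465 CPM (−3.12), and Il2ra had 4.84 and 128 CPM (4.46). The mast cell proteases Cma1 and Cpa3 had 0 UMIs in WT and 410 and 319 UMIs in KO, where 3 cells were mast cell-like. Gm42031, a long noncoding RNA (chromosome 8, 85125872 to 85132289, minus strand), was higher in KO in each leukocyte lineage compared, with log2 ratios of 5.02 in monocyte-macrophage-like, 4.24 in NK-like and 4.38 in T-like members. In the same lineages of cells named otherwise its ratios were 4.60, 4.89 and 5.24.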

How the data were processed

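The authors deposited, per the file headers, 1 table of 19715 genes by 20376 cells whose values are the natural log of 1 plus 10000 times the UMI fraction, and a table of total UMI counts, library and cell type names per cell. Cell Ranger 6.0.1, Seurat 4.0.5 and build mm10 are named in the submitters' processing notes; how cells were filtered and named is not given in the sources used here. UMIs were recovered from both tables: all 60957742 values above 0 came out whole within 0.01, and their sums equalled the deposited counts in all 20376 cells, which held 500 to 126881 UMIs. As each genotype had 1 sorted library, no test was run. CPM carry exact Poisson intervals. Ratios of KO over WT carry conditional binomial intervals and were set against the median gene with at least 50 UMIs. Counts used 2-fold, and lists used 1.5-fold with at least 20 UMIs. A value of 0 was bounded by 3 UMIs. A minimum of 25 cells per library was planned; lineages of 15 or more were added after seeing the data. No doublet caller was run, and cells with at least 3 markers in each of 2 lineages were counted as mixed. The call gave the matching lineage to 89.5% of cells the authors named macrophages, 91.5% of NK cells, 95.4% of T cells and 64.9% of fibroblasts in the sorted libraries. Named genes were the markers, Cd200r1, Cd200, chemokines, cyclins and their inhibitors, the 3 largest of each list with its median and the largest against it, the highest and lowest ratios (at least 100 UMIs and 50 CPM), and the 20 leading genes (at least 100 CPM). Members and lists were chosen with earlier results of these data known. The ratio script was checked on simulated counts. Python 3.11.15, NumPy 2.4.6, SciPy 1.17.1, pandas 2.3.3 and matplotlib 3.10.9 were used. Coordinates are from GENCODE M21 on mm10. Alternatives changed the lineage rule, depth, scaling, minimum and cells kept.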

Additional observations from a re-analysis of the deposited data

How the results depend on the processing

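Each group was 1 library, so depth and cell number set the counting intervals and the spread between animals could not be seen. No paired analysis was possible because the cells carry no sample names. Of 4886 alternative values for 598 gene results, 4741 stayed within the set limits, 123 moved and 22 changed sign. Of 187 values for 21 lists, 13 moved and 0 changed sign. Some settings could hardly change a ratio. Scaling by total UMIs shifts all ratios of a comparison by the same log2 amount, from 0.16 in monocyte-macrophage-like to 0.30 in NK-like members. A changed minimum selects genes and leaves the UMIs of each gene as they were. The number of values that stayed within the limits is therefore not read as a measure of stability. Of 178 values for 26 shares, levels and counts, 58 moved. The cause of each change was not tested.

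Requiring 3 markers and a lead of 2 left 20.5% of WT and 22.8% of KO members unresolved and put KO fibroblast-marker members at 7.02%. Calling by marker UMIs left 5.37% and 1.75% unresolved, and put Cxcl10 at 1.83, Cxcl2 at 0.21 and Ccnd3 at −0.079 in monocyte-macrophage-like members and Maf at −0.34 in NK-like members. With Lyz2, C1qa, Cd3e, Nkg7 and Cd79a alone and no fibroblast class, WT members were 67.8% monocyte-macrophage-like, 20.98% NK-like, 2.93% T-like and 5.85% unresolved. KO members were then 22.2%, 46.8% and 15.8% of the first 3. With at least 1000 UMIs and at most 10% mitochondrial UMIs, members were 4.52% of WT sorted cells, KO fibroblast-marker members 8.11%, the KO G2 and M share 1.25%, and C3 in all members −0.58. Without mixed cells, members were 3.26% of KO sorted cells, 5.43% of them unresolved, with S shares of 0.298% in WT and 0.477% in KO and G2 and M shares of 1.13% and 1.22%. That setting put Ccl1 at −2.62 and Cxcl1 at −0.10 in all members, Isg15 at 0.61 and Igkc at 0.030 in NK-like, Vegfa at 0.38 in monocyte-macrophage-like, Cxcl2 at 2.46 and Xcl1 at 3.02 in T-like members, and C1qb at −1.58 with fibroblast markers.

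Without shared barcodes, an alternative chosen after seeing the data, KO fibroblast-marker members were 5.30%, the WT G2 and M share 1.07%, the KO shares 0.494% (S) and 1.32% (G2 and M), C3 −0.61 and Cdkn2a −0.080 in all members, and Nr4a1 −0.70 with fibroblast markers. Without fibroblast-marker members, also added, C3 was −1.23 and Cdkn2a −0.80. With equal weight per cell, Psrc1 was 0.22 and Ccnb2 0.24 with fibroblast markers. Thinned to 2000 UMIs, KO members were 7.41% fibroblast-marker and 16.1% unresolved, S shares were 0.323% and 0.517%, G2 and M shares 1.15% and 1.33%, Cdk1 in T-like members 0.25 and Ccnd1 with fibroblast markers 0.022. Genes at least 2-fold higher and lower then numbered 397 and 315 in all members, 80 and 55 in NK-like, 79 and 69 in monocyte-macrophage-like, 36 and 20 in T-like, and 37 and 21 with fibroblast markers. With a minimum of 1 UMI they numbered 2121 and 2192, 1507 and 1428, 1115 and 1671, 1544 and 1001, and 1682 and 1750 in the same order. With total UMI scaling they numbered 2001 and 807 in all members, 970 and 234 in NK-like members and 1177 and 507 with fibroblast markers, and 143 were lower in T-like members.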
